A study of Homo sapiens with 8 samples.

Results

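The genes of serine synthesis, of the folate-bound one-carbon cycle and of sarcosine oxidation were followed in LX-2 cells in the presence or absence of an inhibitor of O-GlcNAc transferase (OGT), an enzyme that modifies intracellular proteins with a single sugar, O-GlcNAc. The set comprised 10 of the 16796 genes in the count files, taken by gene symbol: PHGDH, PSAT1 and PSPH of serine synthesis, SHMT1 and SHMT2 of serine and glycine exchange, MTHFD1, MTHFD1L, MTHFD2 and ALDH1L2 of the folate cycle, and PIPOX of sarcosine oxidation. They were selected on the difference between treated and control cells in these same libraries, which was already known, so that difference is described below for each of them without a p-value, and the number of members called in the fit on all genes stands only beside the background and supports nothing. LX-2 is a single established line of human hepatic stellate cells (HSCs), the liver cells that turn into matrix-producing myofibroblasts (MFs). The cells grew in DMEM with 5% fetal bovine serum and were exposed for 24 h to DMSO alone, the vehicle (control), or to 50 µM of OSMI-1, which inhibits OGT (OGTi). Each group had 4 biological replicates, and RNA of a control and an OGTi culture with the same replicate number formed a pair.

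Serine is made from the glycolytic intermediate phosphoglycerate in a short cytosolic route. Serine hydroxymethyltransferases then split serine into glycine and a one-carbon unit carried on folate, SHMT1 in the cytosol and SHMT2 in mitochondria. In mitochondria MTHFD2, MTHFD1L and ALDH1L2 turn that unit into formate or carbon dioxide, whereas in the cytosol the trifunctional MTHFD1 uses it for purines, thymidylate and methionine. Sarcosine is methylated glycine, formed by glycine methylation or choline breakdown. It is turned back to glycine by SARDH in mitochondria or by PIPOX in peroxisomes, where PIPOX also oxidises pipecolate, an intermediate of lysine breakdown, and releases hydrogen peroxide. In liver, both sarcosine enzymes are known mainly from hepatocytes.

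The libraries held 24166756 to 28201215 expected counts each, and 12829 to 13180 genes per library reached 10 counts. The counts were divided by size factors to give normalized counts. A fractional count was found for 12.9% to 16.3% of genes, depending on the library, and arises when a read that aligns to several genes is shared between them. Of 16 stellate cell markers, 10 received a q value, of which 8 were lower and 1 was higher in OGTi cells. COL1A1, COL3A1 and ACTA2 were among the 8 lower. In the controls VIM, COL1A1, TAGLN, PDGFRB and ACTA2 averaged 95086, 84778, 29724, 2280 and 717 normalized counts. By contrast, the markers DES, LRAT and LUM had at most 6.01 normalized counts in any library, and GFAP, DCN and HAND2 did not pass the count filter. In bulk RNA, fewer cells that express a gene and less of its RNA per cell cannot be told apart. A q value here is the Benjamini-Hochberg adjusted p-value of DESeq2 fitted on all genes, and a gene was called when q was 0.05 or lower.

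Across the 10 genes, every fitted log2 fold change was above 0, from 0.07 for MTHFD1 to 4.08 for PIPOX, with a median of 0.45 beside 0.00 over all 14028 genes with a q. A total of 8 of the 10 were called, all 8 higher. Beside this, 46.6% of all genes with a q were called, 22.7% as higher and 24.0% as lower, and nothing is read from the members' count because this contrast chose them. On leaving out 1 pair, 5 to 7 members were called. MTHFD1L was not called when any 1 of the 4 pairs was left out, PSPH was not called without pair 2, 3 or 4, and PSAT1 was not called without pair 4. For 4 of the 10, PHGDH, MTHFD2, ALDH1L2 and PIPOX, the lowest OGTi library lay above the highest control library, a pattern that 18.8% of the 14895 genes past the count filter showed. The 2 genes that were not called, SHMT1 and MTHFD1, were the cytosolic enzymes of the set's folate branch. The 4 mitochondrial folate enzymes (SHMT2, MTHFD1L, MTHFD2 and ALDH1L2) had a median log2 fold change of 0.45, beside 0.09 for the 2 cytosolic ones. All 10 members, chosen on this contrast, also had a median of 0.45, so no response by compartment is read from these values. Outside the set, mitochondrial MTHFD2L stood at 0.00 and cytosolic ALDH1L1 at 0.58, and neither was called.

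**Figure D1:**
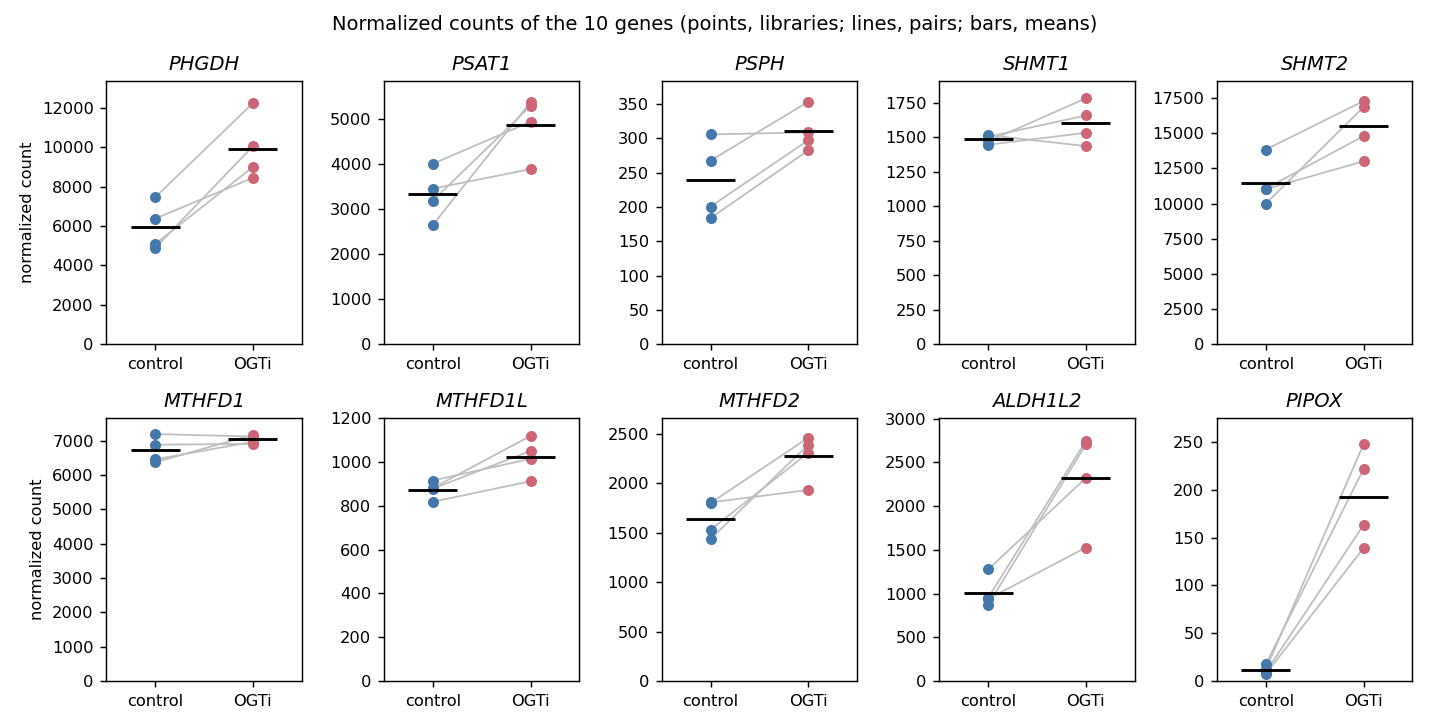
Normalized counts (vertical axis, from 0) of the 10 genes in the 4 control and 4 OGTi libraries, with a point for each library, a grey line joining the libraries of a pair and a black bar at each group mean. PHGDH, MTHFD2, ALDH1L2 and PIPOX show no overlap between the groups, and the points of SHMT1 and MTHFD1 overlap.

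Serine synthesis begins with PHGDH (chromosome 1, 119648411 to 119744218), the dehydrogenase that commits phosphoglycerate to serine. Its normalized counts were 6373, 7457, 4885 and 5084 in control replicates 1 to 4 and 8444, 12232, 10048 and 8995 in OGTi replicates 1 to 4. All 4 OGTi libraries lay above all 4 control libraries, and the replicate with the highest count was replicate 2 in both groups. The mean was 5950 ± 1202 in the controls (SD, n = 4) and 9930 ± 1673 under OGTi (n = 4), and the fitted log2 fold change was 0.75 ± 0.09 (SE), or 1.68-fold. PSAT1 (chromosome 9, 78297125 to 78330093), the aminotransferase of the second step, had 3450, 4000, 2647 and 3184 normalized counts in the controls and 3881, 4933, 5368 and 5281 under OGTi. Its groups overlapped, since OGTi replicate 1 fell below control replicate 2. The mean of PSAT1 went from 3320 ± 563 to 4866 ± 683, a log2 fold change of 0.56 ± 0.20. PSPH (chromosome 7, 56011051 to 56051604), the phosphatase that releases free serine, was the scarcest of the route. Its normalized counts were 306, 268, 184 and 201 in control and 309, 354, 283 and 298 under OGTi, with a fitted log2 fold change of 0.40 ± 0.16. The OGTi range of PSPH overlapped the control range, and pair 1 differed by only 0.01 on the log2 scale. PSPH had a fractional count in all 8 libraries. PHGDH and PIPOX had a fractional count in 6 libraries each, MTHFD1L in 4 and ALDH1L2 in 1, whereas the counts of PSAT1, SHMT1, SHMT2, MTHFD1 and MTHFD2 were whole in all 8. Pseudogene copies are annotated for PSPH, PSAT1, SHMT1, MTHFD1 and MTHFD2 and were not analysed here.

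Serine and glycine are interconverted by SHMT1 in the cytosol and SHMT2 in mitochondria. SHMT2 (chromosome 12, 57229573 to 57234935) had 11028, 13843, 9999 and 11064 normalized counts in the controls and 13003, 17289, 16866 and 14802 under OGTi. Every pair was higher under OGTi, although control replicate 2 exceeded OGTi replicate 1, and the log2 fold change was 0.43 ± 0.08. SHMT1 (chromosome 17, 18327860 to 18363563) was among the steadiest of the 10 genes in control cells, with 1448, 1471, 1505 and 1516 normalized counts and a coefficient of variation of 2.13%. Its OGTi libraries had 1533, 1784, 1659 and 1437, which ran from below the lowest to above the highest control library. The log2 fold change of SHMT1 was 0.11 ± 0.09, with 3 of 4 pairs higher.

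In the folate cycle, MTHFD2 (chromosome 2, 74186172 to 74217565), the mitochondrial dehydrogenase and cyclohydrolase, had 1809, 1801, 1438 and 1531 normalized counts in the controls and 1934, 2464, 2393 and 2311 under OGTi. The groups did not overlap, although OGTi replicate 1 lay close to the upper controls, and the log2 fold change was 0.47 ± 0.10. MTHFD1L (chromosome 6, 150865679 to 151101887) releases formate from the mitochondrial folate carrier. It had 818, 881, 878 and 915 normalized counts in the controls and 912, 1119, 1051 and 1015 under OGTi. All 4 pairs were higher, and the log2 fold change was 0.23 ± 0.10. OGTi replicate 1 of MTHFD1L fell just below control replicate 4. ALDH1L2 (chromosome 12, 105019784 to 105107643) oxidises the formyl group on mitochondrial folate to carbon dioxide with the production of NADPH. Its normalized counts were 938, 1276, 871 and 950 in the controls and 1526, 2322, 2706 and 2747 under OGTi. All OGTi libraries of ALDH1L2 were above all controls, with replicate 1 apart from the other OGTi libraries at the low end. The mean of ALDH1L2 went from 1009 ± 181 to 2325 ± 566, and its log2 fold change of 1.18 ± 0.23, or 2.27-fold, was the second highest of the 10. MTHFD1 (chromosome 14, 64388031 to 64463457), the cytosolic trifunctional enzyme, had 7199, 6376, 6888 and 6459 normalized counts in the controls and 7127, 7179, 6912 and 6976 under OGTi. The OGTi values of MTHFD1 lay inside the control range, and the log2 fold change was 0.07 ± 0.07.

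The promoters of the folate enzymes were compared because MTHFD1L and MTHFD2, which were higher in every pair, and MTHFD1, whose groups overlapped throughout, act in parallel compartments. RefSeq promoter windows of GRCh38.p14, each 300 bases long with 250 before and 50 from the annotated start onward, were matched for 7 of the 10 genes, not for PSPH, SHMT2 and ALDH1L2. The windows were searched on both strands for the core TGATGNAA, which ATF4 binds with a C/EBP partner, for the antioxidant response core TGACNNNGC, and for the E-box CACGTG, which MYC and its relatives bind. These motifs occurred in 3.62%, 13.3% and 7.26% of 35116 RefSeq windows of the same length, respectively. The first window of MTHFD1L held an E-box that began 154 bases before the start and an ATF4 core that began 129 bases before it. The same matches lay in 2 further MTHFD1L windows, which overlapped this one but had other annotated starts. In 1 of them the E-box began 115 bases and the ATF4 core 90 bases before the start. In the other the E-box began 1 base before the start and the ATF4 core at base 25 from it, downstream. MTHFD1 held an E-box that began 15 bases before the start, and MTHFD2 held an antioxidant response core, on the opposite strand, that began at base 7 from the start. Each sequence below runs along the strand of its gene, with capitals marking the motifs, for MTHFD1L at chr6:150866236-150866535 (plus strand), MTHFD2 at chr2:74198365-74198664 (plus strand) and MTHFD1 at chr14:64388103-64388402 (plus strand).
MTHFD1L: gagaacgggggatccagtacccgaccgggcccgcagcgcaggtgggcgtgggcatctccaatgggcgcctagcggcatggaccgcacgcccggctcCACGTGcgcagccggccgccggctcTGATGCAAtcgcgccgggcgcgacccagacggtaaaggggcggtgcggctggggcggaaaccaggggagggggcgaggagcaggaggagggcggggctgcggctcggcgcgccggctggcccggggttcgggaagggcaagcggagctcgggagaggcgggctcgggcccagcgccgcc
MTHFD2: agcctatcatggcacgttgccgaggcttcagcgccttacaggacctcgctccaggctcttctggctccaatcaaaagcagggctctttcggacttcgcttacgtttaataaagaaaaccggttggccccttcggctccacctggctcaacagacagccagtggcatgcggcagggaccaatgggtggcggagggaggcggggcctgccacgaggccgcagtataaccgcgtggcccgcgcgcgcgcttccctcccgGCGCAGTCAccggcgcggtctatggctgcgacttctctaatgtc
MTHFD1: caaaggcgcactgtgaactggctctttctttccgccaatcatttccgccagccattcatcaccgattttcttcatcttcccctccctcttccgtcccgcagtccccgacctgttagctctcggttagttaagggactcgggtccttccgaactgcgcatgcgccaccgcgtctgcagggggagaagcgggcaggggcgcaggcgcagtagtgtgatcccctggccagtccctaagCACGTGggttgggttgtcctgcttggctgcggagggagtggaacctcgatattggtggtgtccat
The windows of PHGDH, PSAT1, SHMT1 and PIPOX held none of these letters, nor did the MTHFD1L window of a start further inside the gene. A match of this kind describes the sequence only, and binding was not measured here.

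PIPOX showed the highest log2 fold change of any called gene whose mean normalized count reached 100 over the 8 libraries, a level it reached through the OGTi libraries alone, and its rank was known when it was chosen. Its deposited counts were 18.0, 13.17, 7.53 and 7.0 in control replicates 1 to 4 and 243.08, 246.9, 169.96 and 138.9 in OGTi replicates 1 to 4, before scaling for depth. After scaling these were 17.5, 12.2, 9.19 and 7.28 normalized counts in the controls and 222, 248, 163 and 139 under OGTi. The lowest OGTi library stood far above the highest control library, and replicates 3 and 4 had the lower counts in both groups. The mean went from 11.6 ± 4.47 to 193 ± 50.5 and the log2 fold change was 4.08 ± 0.32, or 16.9-fold. The control level rested on few reads, so its relative spread (a coefficient of variation of 38.7%) is not comparable with that of the more abundant members.

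The PIPOX gene spans chromosome 17, 28950513 to 29057216, on the plus strand. GENCODE lists 10 transcripts for it, of which 5 start up to 92.6 kb upstream of the RefSeq start used here and have no defined coding sequence. Counts per gene do not tell which start was used. PHF12 on the minus strand overlaps the upstream end of the span, and SEZ6, also on the minus strand, overlaps its body. The library protocol and, per the study's methods, the RSEM counting were strand-specific. SEZ6 averaged 0.26 normalized counts in the controls and 2.17 under OGTi. The promoter window of the coding transcript, at chr17:29042891-29043190 (plus strand), is shown because it belongs to the gene with the widest separation between groups, and it has no capitals since no motif was matched.
PIPOX: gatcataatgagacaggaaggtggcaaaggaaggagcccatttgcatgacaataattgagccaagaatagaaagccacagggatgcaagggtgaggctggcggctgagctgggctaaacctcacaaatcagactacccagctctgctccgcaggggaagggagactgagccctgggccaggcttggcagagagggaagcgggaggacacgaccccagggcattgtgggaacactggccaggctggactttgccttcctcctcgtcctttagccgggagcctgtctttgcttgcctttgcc

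**Figure D2:**
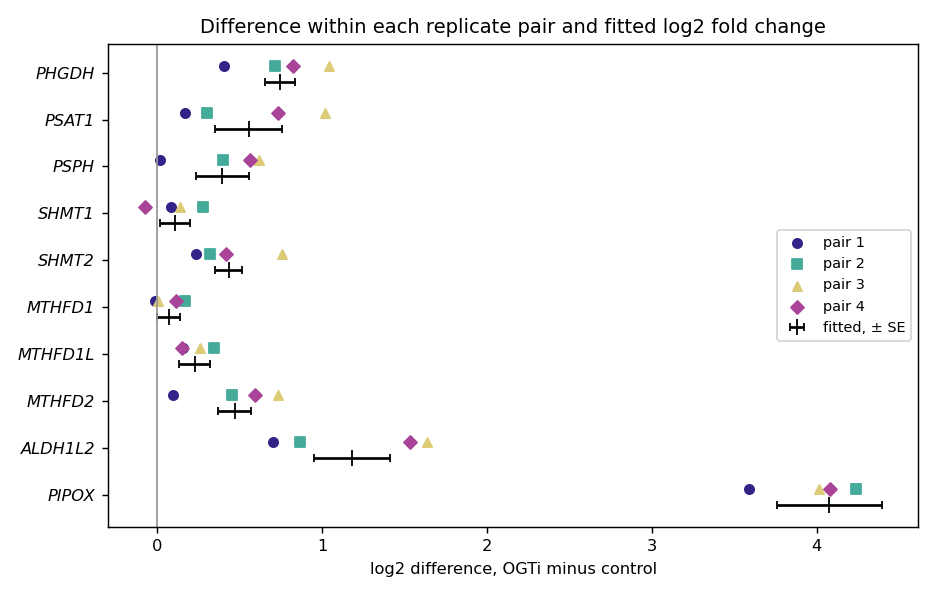
Log2 difference between the OGTi and the control library of each replicate pair (horizontal axis, on normalized counts plus 1; a symbol for each pair) and the fitted log2 fold change with its standard error (black) for each gene. Pair 1 gave the smallest difference for 8 of the 10 genes, and PIPOX stands apart from the other 9 genes in every pair.

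The pairs were not alike. Pair 1 gave the smallest difference between OGTi and control for 8 of the 10 genes, and pair 3 gave the largest for 6, namely the 3 serine synthesis genes, SHMT2, MTHFD2 and ALDH1L2. For PSAT1, the difference ranged from 0.17 in pair 1 to 1.02 in pair 3 on the log2 scale, and for ALDH1L2 from 0.70 to 1.63. Among control libraries, replicate 3 was the lowest for the same 6 genes, and the median deviation of the 10 genes in it from the mean of the other controls was -0.27 on the log2 scale. Over the 10994 genes whose mean normalized count reached 100, the median deviation of that library was 0.01, and it was the lowest control for 27.7% of them. Among OGTi libraries, replicate 1 was the lowest for 6 of the 10 genes, with a median deviation of -0.26 beside -0.02 for the 10994 genes. OGTi replicate 2 was the highest for 8 of the 10, beside 29.6% of the 10994 genes. The genes of the set are not independent of each other, so these counts are a description of the libraries. Leaving out pair 3 lowered the log2 fold change of PSAT1 to 0.40 and of SHMT2 to 0.32, and leaving out pair 1 raised that of PSAT1 to 0.68 and of ALDH1L2 to 1.35.

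To compare levels between genes, normalized counts were divided by the length of each gene's merged exons in kilobases. In control cells SHMT2 was the most abundant at 2501 ± 359 normalized counts per kb (SD, n = 4), followed by PSAT1 at 1505 ± 255, PHGDH at 648 ± 131, MTHFD1 at 388 ± 22.2, SHMT1 at 212 ± 4.50 and MTHFD1L at 179 ± 8.23. Each of these 6 differed from its neighbour in the order without overlap between the 4 control libraries. The lower levels were 144 ± 16.5 for MTHFD2, 106 ± 19.1 for ALDH1L2 and 86.7 ± 20.7 for PSPH, and the ranges of MTHFD2 and ALDH1L2, and of ALDH1L2 and PSPH, overlapped. PIPOX was last at 3.03 ± 1.17 normalized counts per kb. In OGTi cells ALDH1L2 moved from rank 8 to rank 5, at 245 ± 59.6 normalized counts per kb, with a range that overlapped that of SHMT1, and PIPOX stayed at rank 10 with 50.7 ± 13.2. With the longest annotated transcript as the length, ALDH1L2 was at rank 8 in both groups, at 123 ± 22.1 and 284 ± 69.1 normalized counts per kb. With that length, 6 of the 10 genes kept their rank in control cells, and PHGDH (1871 ± 378 normalized counts per kb) moved above PSAT1, with overlapping ranges, as did MTHFD2 above MTHFD1L.

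Ratios of levels per kb show how the parallel branches stood to each other within a library. The ratio of mitochondrial SHMT2 to cytosolic SHMT1 was 11.6, 14.4, 10.1 and 11.1 in control and 12.95, 14.8, 15.5 and 15.7 in OGTi replicates 1 to 4. It was higher under OGTi in all 4 pairs, but the groups overlapped through control replicate 2. The ratio of MTHFD1L to MTHFD1 went from 0.462 ± 0.0448 to 0.516 ± 0.0438, and that of MTHFD2 to MTHFD1 from 0.371 ± 0.0465 to 0.490 ± 0.0532, both with overlapping groups and all 4 pairs higher. The ratio of ALDH1L2 to MTHFD2, 2 enzymes of the same compartment, was 0.625, 0.854, 0.730 and 0.748 in control and 0.951, 1.14, 1.363 and 1.43 in OGTi cells, without overlap. These ratios were built from the contrast that chose the genes and are given without a test. Their absolute size depends on the length used, and with the longest transcript the SHMT2 to SHMT1 ratio was 6.25 ± 0.955 in control and 7.79 ± 0.668 in OGTi cells.

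**Figure D3:**
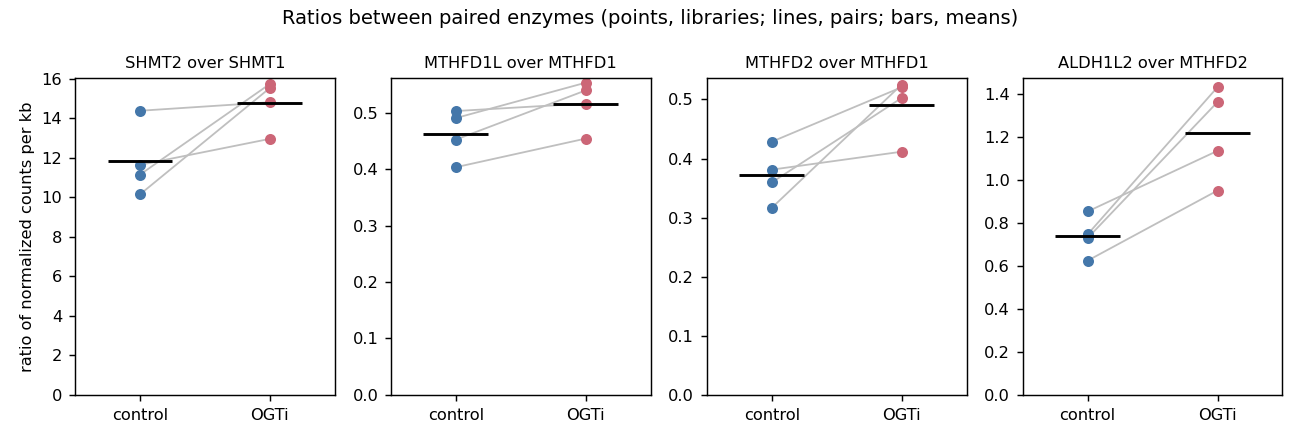
Ratios of normalized counts per kb of merged exon length (vertical axes, from 0) between paired enzymes in each library, with grey lines joining pairs and black bars at group means. All 4 ratios were higher under OGTi in all 4 pairs, and the groups were separate only for ALDH1L2 over MTHFD2.

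The surrounding pathways were taken from 7 lists of 87 genes, of which 74 received a q. Among them, 23 genes rose (31.1%) and 13 fell (17.6%) under OGTi, beside 22.7% and 24.0% of all genes, and 38 were not called. Their median log2 fold change was 0.12, beside 0.00 over all genes. The lists were chosen with earlier results of these data known, so the shares and medians are a description only. Enzymes that use serine or glycine were represented by 13 genes with a q, of which 5 were higher, 3 were lower and 5 were not called, with a median of 0.29. GCAT, an enzyme that forms glycine, rose from 618 ± 75.3 to 1248 ± 187 normalized counts (log2 fold change 1.01 ± 0.10, DESeq2 q of 5.76e-22). PTDSS1, which puts serine into phosphatidylserine, rose by 0.86 ± 0.08 on the log2 scale (DESeq2 q of 2.22e-25). The subunits of serine palmitoyltransferase, the first enzyme of sphingolipid synthesis, rose as well, SPTLC2 by 0.50 ± 0.09 and SPTLC1 by 0.29 ± 0.08 (DESeq2 q of 6.57e-08 and 0.000488). GLYCTK, the kinase that removes glycerate formed in serine breakdown, fell from 200 ± 23.7 to 39.8 ± 19.0 normalized counts (log2 fold change -2.41 ± 0.26, DESeq2 q of 2.55e-19). DLD, a subunit that the glycine cleavage system shares with other dehydrogenases, fell by 0.55 ± 0.09 on the log2 scale (DESeq2 q of 4.9e-08). GLDC, which starts glycine cleavage, had 0 to 18.1 normalized counts and was not called (DESeq2 q of 0.728).

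Among the 6 genes of choline, betaine and sarcosine metabolism with a q, 1 was higher, 1 was lower and 4 were not called, with a median log2 fold change of 0.03. SARDH, the mitochondrial sarcosine dehydrogenase, fell while PIPOX was higher. Its normalized counts were 614, 716, 663 and 690 in control and 433, 424, 499 and 478 in OGTi replicates 1 to 4, without overlap (log2 fold change -0.55 ± 0.12, DESeq2 q of 1.04e-05). Per kb of merged exons, SARDH went from 131 ± 8.51 to 89.6 ± 7.0 normalized counts, against 3.03 ± 1.17 and 50.7 ± 13.2 for PIPOX, so the level of SARDH stayed the higher of the pair in OGTi cells by group mean. DMGDH, which forms sarcosine from dimethylglycine, had 0, 1, 1 and 0 counts in control and 8, 7, 6 and 7 in OGTi libraries and was called as higher (DESeq2 q of 0.0229). Without replicate 1 that call was lost (q of 0.108), without replicate 2, 3 or 4 the independent filtering of DESeq2 gave the gene no q, and at these counts no fold is given. GNMT, which makes sarcosine from glycine, ranged from 0 to 30.1 normalized counts in the controls and from 6.01 to 51.2 in OGTi cells and was not called (DESeq2 q of 0.456).

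Of 17 other folate genes with a q, 3 were higher, 2 were lower and 12 were not called, with a median log2 fold change of 0.10. DHFR2, a mitochondrial enzyme of the folate cycle, rose by 0.76 ± 0.24 (DESeq2 q of 0.00426, and 0.0796 without replicate 2). MTFMT, which formylates mitochondrial initiator tRNA, rose by 0.33 ± 0.12 (DESeq2 q of 0.0142), a call that was lost on leaving out replicate 1, 3 or 4 (q up to 0.101). TYMS, the thymidylate synthase, fell from 6659 ± 278 to 5136 ± 491 normalized counts (log2 fold change -0.38 ± 0.07, DESeq2 q of 2.04e-07). SLC19A1, the reduced folate carrier, fell by 0.55 ± 0.10 on the log2 scale (DESeq2 q of 9.03e-08). The relatives of members in this list gave no call. MTHFD2L, the second mitochondrial MTHFD2-type enzyme, had a log2 fold change of 0.00 ± 0.19, and ALDH1L1, the cytosolic counterpart of ALDH1L2, had 0.58 ± 0.39 at 18.4 to 65.4 normalized counts per library (DESeq2 q of 0.994 and 0.228).

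In the methionine cycle and transsulfuration, 4 of 10 genes were higher, 0 were lower and 6 were not called, with a median log2 fold change of 0.21. CTH, which releases cysteine from cystathionine, rose from 98.6 ± 32.4 to 191 ± 32.4 normalized counts (log2 fold change 0.99 ± 0.24, DESeq2 q of 0.000178). AHCYL2, a relative of the hydrolase that clears S-adenosylhomocysteine, rose by 0.81 ± 0.09 (DESeq2 q of 2.7e-16). The hydrolase AHCY itself rose by 0.25 ± 0.07 and MTRR, which reactivates methionine synthase, by 0.29 ± 0.08 (DESeq2 q of 0.00239 and 0.000701), and AHCY lost its call without replicate 2 (q of 0.0783).

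PIPOX works in peroxisomes and on the lysine route, and 13 genes of these processes had a q. Of them 4 were higher, 2 were lower and 7 were not called, with a median log2 fold change of 0.28. Catalase (CAT), which removes hydrogen peroxide, rose from 685 ± 29.0 to 934 ± 13.9 normalized counts (log2 fold change 0.45 ± 0.10, DESeq2 q of 2.11e-05). ACOX2, which oxidises branched-chain acids and bile acid precursors, had only 2.08 to 5.64 normalized counts in the controls and 7.69 to 25.6 under OGTi (DESeq2 q of 0.0149), and its call was lost without replicate 1 or 4 (q up to 0.125). ALDH7A1, which acts after pipecolate oxidation in lysine breakdown, rose by 0.59 ± 0.09 (DESeq2 q of 7.35e-10). PEX5, the receptor that imports peroxisomal proteins, fell by 0.34 ± 0.12 and AADAT, the aminoadipate aminotransferase, by 0.51 ± 0.20 on the log2 scale (DESeq2 q of 0.0123 and 0.0288). Leaving out replicate 2 or 3 ended both of these calls, and leaving out replicate 4 ended that of PEX5 (q up to 0.0984 for PEX5 and 0.241 for AADAT).

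Carriers of serine and glycine moved in both directions, with 5 of 10 higher, 4 lower and 1 not called, and a median log2 fold change of 0.01. SLC1A5, the exchanger of small neutral amino acids, rose from 11478 ± 987 to 19451 ± 2549 normalized counts (log2 fold change 0.76 ± 0.07, DESeq2 q of 6.7e-25). SLC38A1, a sodium-coupled carrier, rose by 0.47 ± 0.07 (DESeq2 q of 4.47e-09), whereas its relatives SLC38A2 and SLC38A4 fell by 0.65 ± 0.08 and 1.11 ± 0.17 on the log2 scale (DESeq2 q of 2.51e-14 and 4.62e-10). At the mitochondrial membrane, SLC25A38, a glycine carrier, rose by 0.50 ± 0.09 and SFXN1, the serine carrier, fell by 0.31 ± 0.08 on the log2 scale (DESeq2 q of 6.24e-07 and 0.000724).

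**Figure D4:**
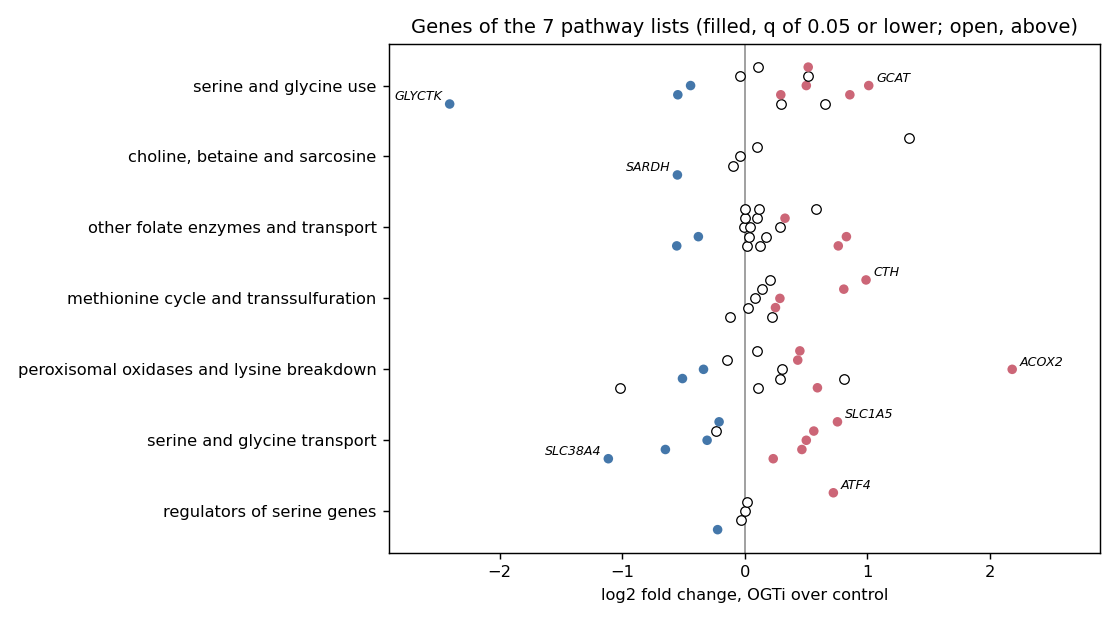
Log2 fold change of OGTi over control (horizontal axis) for the genes of the 7 pathway lists that received a q, with filled points for a q of 0.05 or lower (red higher, blue lower), open points above it, and vertical offsets within a list for legibility only. GLYCTK and SLC38A4 are the lowest called genes and ACOX2 the highest, and DMGDH is left out because its control libraries held 0 or 1 count.

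Of 5 regulators known to act on serine genes, 1 was higher, 1 was lower and 3 were not called, with a median log2 fold change of -0.00. ATF4, the stress-induced activator of serine synthesis and mitochondrial folate genes, rose from 6828 ± 402 to 11358 ± 1829 normalized counts (log2 fold change 0.72 ± 0.08, DESeq2 q of 2.1e-16). MYC fell by 0.22 ± 0.09 on the log2 scale (DESeq2 q of 0.0256), with 1 of 4 pairs higher, and this call was lost without the pairing of replicates and without replicate 1, 2 or 4 (q up to 0.246). NFE2L2, which encodes NRF2, stood at -0.00 ± 0.09 on the log2 scale (DESeq2 q of 0.995). The part of these regulators in the values of the 10 genes was not tested.

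Since PIPOX is known from hepatocytes, hepatocyte markers were listed beside it. Of 8 markers, ALB, TTR, CYP3A4 and HNF4A were not analysed here and APOA1 did not pass the count filter. The other 3, SERPINA1, TF and CYP2E1, summed to 47.1 to 105 normalized counts in the controls and 200 to 299 under OGTi. Most of the difference in the sum was CYP2E1, at 41.4 ± 17.3 and 200 ± 51.6 normalized counts (DESeq2 q of 2.9e-14), whereas SERPINA1 and TF were not called (q of 0.88 and 0.142). Of the markers of other liver cells, 1 of 2 of cholangiocytes and 1 of 2 of leukocytes (CD68) were higher, 1 of 2 of cholangiocytes and 1 of 3 of endothelial cells were lower, and PTPRC had at most 11.5 normalized counts. The part of these markers in the PIPOX values was not tested.

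The neighbourhood of PIPOX was examined to see how nearby genes stood. Within 500 kb of the gene, 23 other genes passed the count filter and 22 received a q, of which 6 were higher, 10 were lower and 6 were not called, beside 22.7% higher and 24.0% lower over all genes. Their median log2 fold change was -0.10. The 3 with the largest Wald statistic were ALDOC, the brain-type aldolase, which rose from 464 ± 48.2 to 1484 ± 220 normalized counts (log2 fold change 1.67 ± 0.12, DESeq2 q of 6.09e-40), TLCD1, a regulator of membrane fluidity, which rose from 38.2 ± 12.2 to 232 ± 21.6 (2.63 ± 0.24, DESeq2 q of 1e-25), and SPAG5, a protein of the mitotic spindle, which fell from 5333 ± 131 to 3561 ± 530 (-0.59 ± 0.09, DESeq2 q of 6.88e-11). These 3 lie 278 to 429 kb upstream of PIPOX between gene midpoints. The closest called genes on either side, named for their position after their values were seen, were PHF12 at -0.26 ± 0.08 and MYO18A at -0.23 ± 0.08 on the log2 scale (DESeq2 q of 0.00206 and 0.00682).

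**Figure D5:**
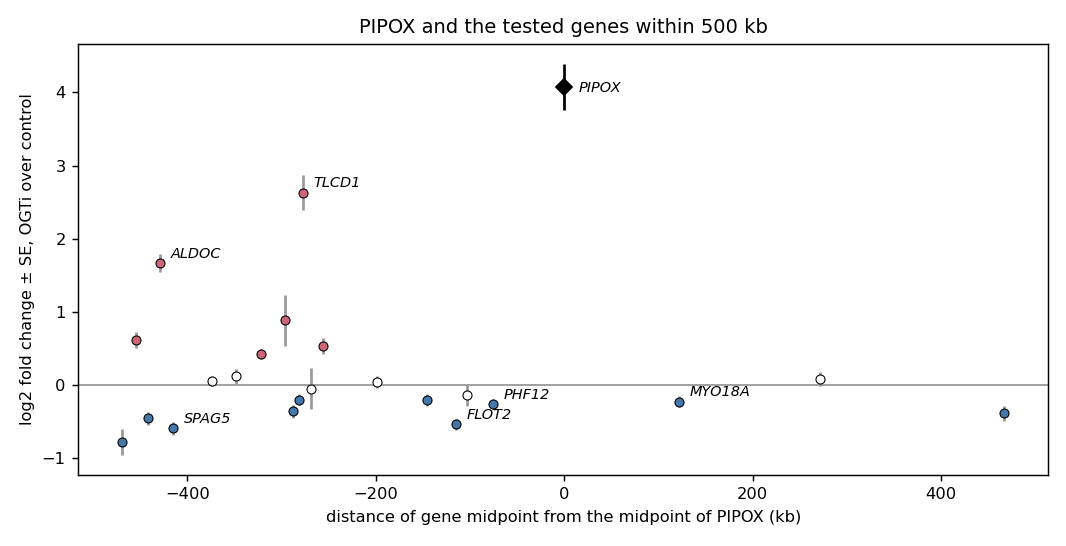
Log2 fold change with standard error (vertical axis) of PIPOX (black diamond) and of the 22 genes with a q within 500 kb, against the distance in kb between gene midpoints (horizontal axis), with filled points for a q of 0.05 or lower and open points above it. TLCD1 (2.63) and ALDOC (1.67) are the highest of the neighbours, and PHF12 and MYO18A, on either side of PIPOX, lie below 0.

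The genes whose 4 pair differences were most like those of PIPOX were sought among 12486 genes whose mean normalized count reached 20, by the Euclidean distance between the differences on the log2 scale. The nearest was NGFR, the low-affinity nerve growth factor receptor, at a distance of 0.49. It had 104, 151, 74.7 and 84.2 normalized counts in the controls and 1488, 2577, 1367 and 1121 in OGTi replicates 1 to 4, without overlap, and replicate 2 was the highest in OGTi cells for both genes. The next were RBFOX3 (a neuronal splicing factor), CPXM1 (a secreted carboxypeptidase-like protein), SERPINI1 (neuroserpin) and PPP1R36 (a protein phosphatase subunit), at distances of 1.86, 2.19, 2.20 and 2.32, with means of 5.89 to 12.7 normalized counts in control cells. Under OGTi their means were 56.2 to 116, so these 4 genes reached a mean of 20 only through the OGTi libraries. The distance was taken over 4 pairs, and the large difference of PIPOX itself limits which genes can lie near it. It used the same differences that chose PIPOX, so the list is a description only.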

How the data were processed

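Stranded, polyadenylated RNA libraries of 4 control and 4 OGTi cultures were sequenced. Per the submitters' processing notes, the tools were Bowtie2 2.3.5.1, RSEM 1.3.1 and DESeq2 1.36.0 on hg38. The authors deposited expected counts per gene, which are not scaled for depth and share ambiguous reads between genes. A deposited comparison table of fold changes and p-values was not used. Expected counts were rounded, genes under 10 counts in total were left out, and the rest were fitted with DESeq2 1.42.0 in R 4.3.3 (Wald test, replicate as a block, q of 0.05). The procedure was also run on simulated counts with far fewer changed genes than here and no replicate effect. That setting differs from these data, and nothing is drawn from it. The numbers were taken to pair the samples, as the study's methods do. Same-numbered libraries deviated together over 12487 genes (Pearson r of 0.35, 0.27, 0.13 and 0.22 for replicates 1 to 4). However, control replicate 3 was nearer to OGTi replicate 4 (0.25), and OGTi replicate 3 was nearer to control replicate 4 (0.15). The correlations therefore do not establish the pairing of replicates 3 and 4. The labels call the replicates biological and say no more of their origin, and p-values cover the spread between them. Alternatives were edgeR 4.0.16, other filters and scalings, and leaving out each replicate. Positions and exon lengths came from GENCODE 44, with 16247 of 16796 symbols matched. The members and lists were chosen with earlier results of these data known. Genes named were all members, at most 6 called genes per list by Wald statistic, their fixed relatives, 3 neighbours and 5 likenesses of PIPOX. Some listed genes are counted but not reported by name.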

Additional observations from a re-analysis of the deposited data

Results flagged for a closer look

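For each named gene, the total counts and the share of fractional counts, the highest or lowest of the 4 libraries of a group was compared with the rest, and 7 of 106 groups had a library far from the others, where chance gives about 1 in 20. No member of the set was among them. SPTLC2 was low in OGTi replicate 2, with 1652 where the remaining OGTi libraries had 2007 to 2050. ALDH7A1 and NFE2L2 were high in control replicate 1. ALDH7A1 had 1612 there and 1074 to 1151 in the remaining controls, and NFE2L2 had 1737 there and 1412 to 1462 elsewhere. SLC1A5 was high in control replicate 2 (12950, with 10847 to 11107 elsewhere), and MTHFD2L was high in control replicate 3 (194, with 145 to 148 elsewhere). RBFOX3 was high in OGTi replicate 2 (214, with 72.2 to 96.1 elsewhere), the library in which 8 of the 10 members were also highest. In that library 13.5% of genes held a fractional count, below the 15.0% to 15.2% of the remaining OGTi libraries.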

How the results depend on the processing

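The count of genes that changed was 6541 with DESeq2 and the replicate block, 6307 with DESeq2 without the block, 7074 with edgeR's quasi-likelihood test with the block and 6041 without it, and 5127 to 5690 on leaving out 1 pair. Without the pairing, 7 of the 10 members kept a q of 0.05 or lower under either tool, PSPH being the one lost, and the count of regulators called as lower went from 1 to 0 under both DESeq2 and edgeR. Leaving out 1 pair gave 5 to 7 members, 0 choline, betaine and sarcosine genes called as higher (DMGDH had no q in 3 of these 4 fits), 0 to 2 peroxisomal and lysine genes called as lower, and 0 to 1 regulators called as lower. With at least 10 counts required in 4 libraries, 0 choline, betaine and sarcosine genes were called as higher, because DMGDH was left out. The order of levels kept 6 of 10 ranks with the longest transcript. Of the 5 genes most like PIPOX, 3 remained with a pseudocount of 5 and 1 when a mean of 100 was required, which removes low genes by construction. Fitted log2 fold changes of the members kept their sign under all 12 alternatives, and that of PIPOX ranged from 3.98 to 4.26. Depth limits PIPOX in control cells, DMGDH, GLDC and ACOX2, all at few counts. Where no cause is named, the cause was not tested.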
